A study of Mus musculus with 4 samples.

Results

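The cytosolic ribosomal protein genes are the genes whose annotated symbol starts with Rpl (large subunit) or Rps (small subunit) followed by a digit, p or a. Rps6k kinases and pseudogene names were left out, and only probe sets with 1 gene symbol were used, the one with the highest mean standing for each gene. The rule found 63 of 19938 genes on the array, 38 with Rpl and 25 with Rps symbols. Of these, 54 are parent genes of the cytosolic ribosome, 8 are paralogues or copies, and 1, Rps19bp1, is no ribosomal protein but a regulator of the deacetylase Sirt1 that binds Rps19. The 54 parent genes stand for 54 of 77 parent symbols. A further 16 lie only on probe sets that carry several symbols, and 7 on no probe set named here.

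A ribosome has 1 copy of nearly every one of these proteins, so cells make them in balance with each other and with ribosomal RNA. Their messages are among the most abundant of a growing cell. Most begin with a run of C and T bases at the 5′ end, the terminal oligopyrimidine (TOP) tract, through which the kinase mTOR and the RNA-binding protein Larp1 set how much of the message is translated. An array reads the level of a message and not its translation.

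Expression was measured in RAW264.7 cells, a transformed mouse macrophage-like line that turns into osteoclasts, the cells that resorb bone, when given RANKL and M-CSF. All cells had been transfected, with either a control vector or a vector expressing miR-155. RNA was taken from unstimulated cells or after 72 h with RANKL and M-CSF; the stated 20 ng/ml may refer to each cytokine or to RANKL alone. The sample labels name a control vector where the series description speaks of wild-type cells. Each of the 4 groups (control vector unstimulated, control vector stimulated, miR-155 vector unstimulated, miR-155 vector stimulated) has 1 array, so no difference has a replicate check, a standard error or a p-value. The labels do not say which promoter drives miR-155 or whether the cells were a pool or 1 clone. Values are on the log2 scale of RMA, in which quantile normalization makes the 4 arrays' distributions nearly equal. A change in the total RNA of a cell is therefore not visible, and in RNA from a whole culture fewer cells with a message and less of it per cell cannot be told apart.

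The microRNA that the vector expresses is given here because it is the difference between the vectors that the labels name. RefSeq (GRCm38.p6) places its guide strand at chr16:84714143-84714165 on the + strand, with the seed, bases 2 to 8, in capitals.
mmu-miR-155-5p: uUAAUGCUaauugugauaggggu

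The probe set of Mir155 itself lay below the floor defined in the next paragraph on all 4 arrays, at 3.72 and 3.61 in control and 3.58 and 3.73 in miR-155 cells. The arrays therefore do not show the extra miR-155 that the labels state, and whether this probe set reads RNA from the vector is not known. The vector groups rest on the labels alone.

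The labelled cell state was checked against defining markers. The stimulated control array had the osteoclast genes Ctsk at 13.40, Acp5 at 12.97 and Mmp9 at 12.14, against 6.72, 6.54 and 5.12 without stimulation. Over all 8 osteoclast markers the summed log2 level was 45.5 and 87.5 in control and 41.8 and 72.3 in miR-155 cells, with 7 or 8 above the floor on each array. On the miR-155 arrays Ctsk stood at 4.26 without and 11.18 with stimulation. Itgb3 went only from 5.30 to 6.44 there, and Calcr from 4.12 to 3.98. The summed level of the 6 macrophage markers was 69.2 and 49.7 in control and 68.1 and 66.6 in miR-155 cells. All 6 lay above a floor of 4.25 on every array, but Cybb, Lyz2 and Adgre1 were at 5.26, 7.58 and 4.88 on the stimulated control array only. With stimulation in control cells Itgam went from 9.61 to 7.55 and Csf1r from 11.82 to 11.46, while Cd68 rose from 12.66 to 12.96. Of 4 measured T and B cell markers, 1 (Cd3e) was above the floor, on all 4 arrays, and the summed log2 level of the 4 was 14.2 to 14.7. Of 4 fibroblast markers, 3 or 4 were above it, with a summed log2 level of 18.6 to 20.1. The floor is the 95th percentile of olfactory and vomeronasal receptor probe sets, genes that these cells are not known to use.

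Read by the brightest probe set of each gene, ribosomal protein messages differed little in any comparison. Of the 63 members, 61 lay above the floor; Rpl3l, the muscle form of Rpl3, and Rpl39l, the testis form of Rpl39, did not, with levels of 3.70 to 3.99 and 3.23 to 3.79. A gene was counted as past the threshold when it differed by at least 1.5-fold (0.585 on the log2 scale). By that count 0 of 61 members were past it after RANKL and M-CSF in control cells, where 27.5% of all 13545 genes above the floor were (12.4% higher and 15.2% lower). In miR-155 cells it was 0 of 61, against 7.17% of all genes (3.43% higher and 3.74% lower). Between the vectors it was 1 of 61 without stimulation, against 4.33% (1.18% higher and 3.15% lower), and 2 of 61 with stimulation, against 25.9%. The median spread between the lowest and highest of the 4 arrays was 0.29 (log2) for members and 0.48 for all genes above the floor. Of the members 54 spanned less than 0.5, as did most genes above the floor, given their median.

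The members' probe sets are bright. Their median lay at the 99.0 percentile of mean level among genes above the floor. Among the 102 genes outside the family at least as bright as the median member, 23.5% were past 1.5-fold in stimulated control cells, 6.86% in stimulated miR-155 cells, 1.96% between the unstimulated vectors and 20.6% between the stimulated vectors. The median spread of these 102 genes over the 4 arrays was 0.44 (log2). That set was chosen after the values were seen, and it describes these 4 arrays only. Across the 61 members, the Pearson correlation between any 2 arrays was 0.993 to 0.995, where over all genes above the floor it was 0.908 to 0.989. These correlations are across genes within pairs of arrays, and genes are not replicates.

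**Figure D1:**
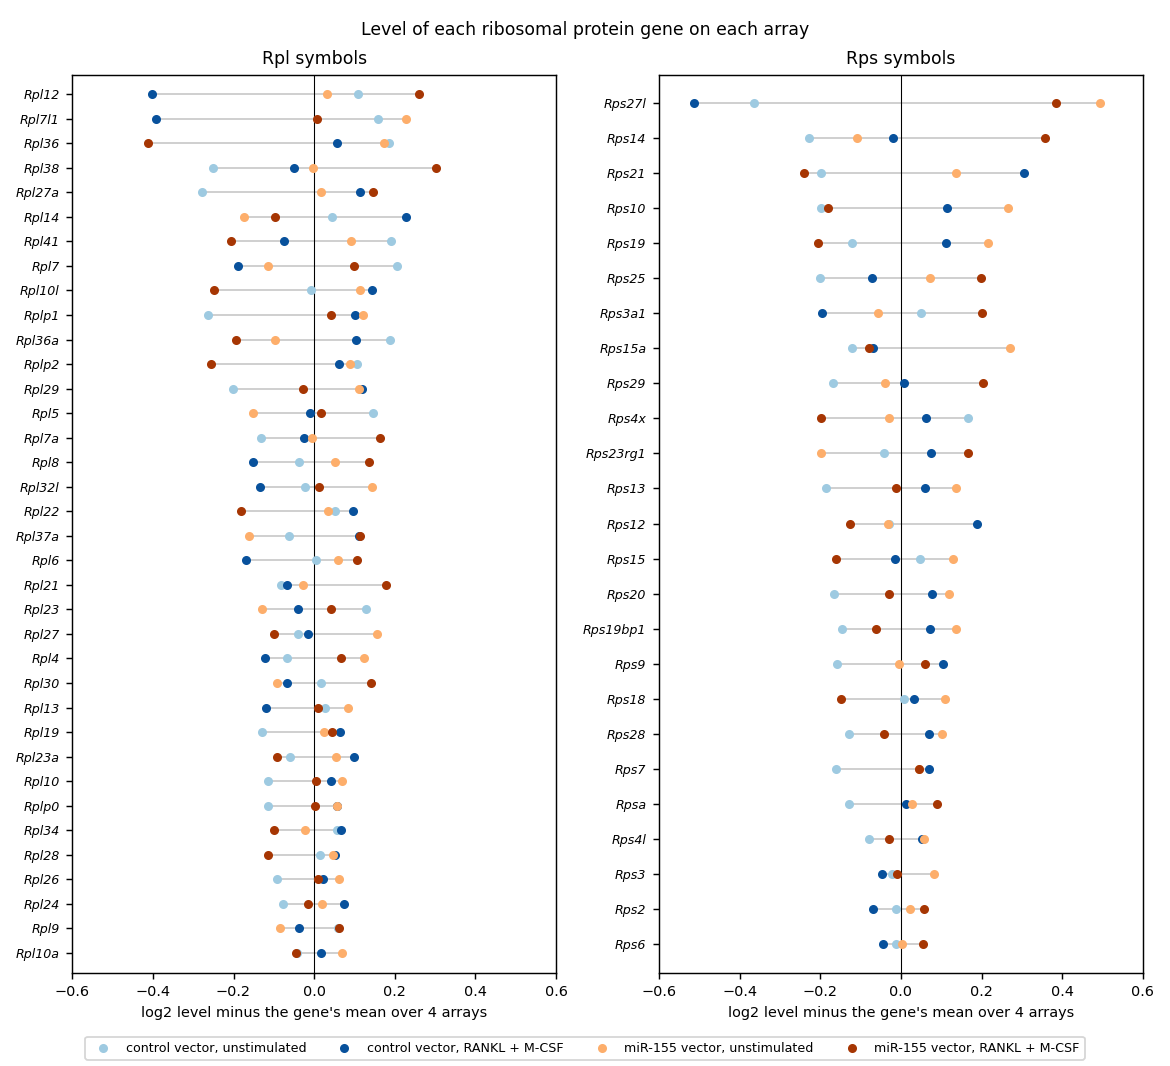
Log2 level of each of the 61 ribosomal protein genes above the floor on each array, minus the gene's own mean over the 4 arrays, for Rpl symbols (left) and Rps symbols (right), 1 point per array and a grey line from the lowest to the highest. Rps27l is the only member that spans more than 1 log2 unit, and Rps6 at the bottom spans 0.10.

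Rps6, the small subunit protein that S6 kinases phosphorylate downstream of mTOR, had the smallest spread over the arrays of all members above the floor. Its levels were 12.68 and 12.65 in unstimulated and stimulated control cells and 12.70 and 12.75 in the miR-155 cells. Rps3, which lines the entry channel for messenger RNA, stood at 11.74, 11.72, 11.85 and 11.75 in the same order. Rpl10a, of the stalk that helps release transfer RNA, stood at 12.10, 12.16, 12.22 and 12.10. Within none of these 3 genes did any array lie more than 0.13 from another.

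The acidic stalk, which recruits elongation factors, is made of Rplp0, Rplp1 and Rplp2. Rplp0 stood at 12.27 and 12.44 in control cells and at 12.44 and 12.39 in miR-155 cells. Rplp1 was lowest in unstimulated control cells, at 12.72, and lay at 13.08, 13.10 and 13.02 on the other arrays, a difference of 0.37 (1.29-fold) with stimulation in control cells. Rplp2 had a dim probe set, at 5.58, 5.54, 5.57 and 5.22, lowest in stimulated miR-155 cells. Rpsa, which is also known as a laminin receptor at the cell surface, lay at 12.33 and 12.47 in control and 12.49 and 12.55 in miR-155 cells. None of the 4 differed by as much as 1.5-fold between any 2 arrays.

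In control cells the stimulation came with a median log2 difference of 0.06 over the 61 members, beside -0.02 for all genes. Of all genes 6475 were above 0 and 7065 below, and of the members 38 and 23. Rps21, a small subunit protein, had the highest difference (0.50, 1.42-fold), followed by Rpl27a (0.39), Rplp1 (0.37), Rpl29 (0.32) and Rps10 (0.31). The lowest were Rpl7l1 (-0.55, 1.47-fold), Rpl12 (-0.51), Rpl7 (-0.39), Rpl41 (-0.26), the shortest ribosomal protein, and Rps3a1 (-0.25). At a lower threshold of 0.32 on the log2 scale, 3 members were higher and 3 lower, against 21.4% and 26.0% of all genes (47.4% in either direction). With each array centred on its median, a scaling that moves the median of all genes by 0.14 in this comparison, the members' median was 0.20.

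In miR-155 cells the same treatment gave a median of -0.07, beside -0.03 for all genes. Of all genes 6103 were above 0 and 7439 below, and of the members 25 and 36. Rpl36, a large subunit protein, had the lowest value (-0.58), a difference just short of 1.5-fold. Its levels were 11.89 and 11.76 in control cells, 11.88 in unstimulated and 11.29 in stimulated miR-155 cells, so that 1 array stood apart from the other 3. Rps10, a site where cells mark collided ribosomes with ubiquitin, followed at -0.45. Rps19, the protein most often mutated in human Diamond-Blackfan anaemia, was at -0.42 and Rps21 at -0.38. Rps14, whose loss underlies the anaemia of the human 5q deletion syndrome, had the highest difference (0.47, 1.38-fold), with levels of 11.84 and 12.05 in control and 11.96 and 12.43 in miR-155 cells. Past 0.32, 2 members were higher and 7 lower, against 10.7% and 14.9% of all genes (25.6% in either direction). Rps23rg1 (0.36) and Rpl38 (0.31) were among the highest after Rps14, as was Rpl37a (0.28), a large subunit zinc finger protein that stood at 10.79, 10.96, 10.69 and 10.96.

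**Figure D2:**
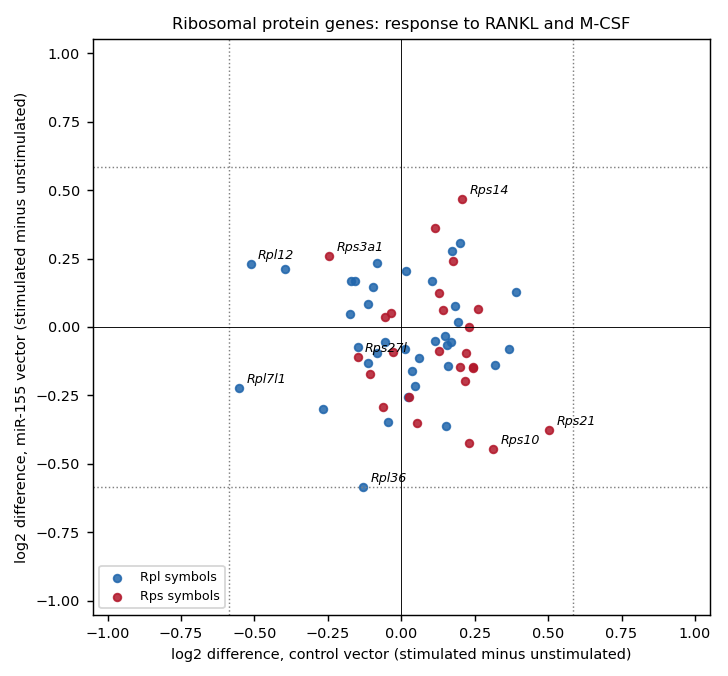
Log2 difference with RANKL and M-CSF with the control vector (x axis) and the miR-155 vector (y axis), 1 point per ribosomal protein gene above the floor, with dotted lines at 1.5-fold. All 61 points lie inside the dotted lines, Rpl36 at the lower edge; Rps21 and Rps10 lie to the lower right, Rpl12 to the upper left.

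The responses in the 2 vectors share no array. Of the 61 members, 14 were above 0 in both, 12 below 0 in both and 35 had opposite signs. Of all 13545 genes above the floor the counts were 3448, 4412 and 5677. Across these members the responses had a Pearson correlation of -0.10 and a Spearman correlation of -0.10, where all genes above the floor gave 0.47 and 0.28. The difference of the responses (miR-155 minus control) was past 1.5-fold for 5 members, against 28.4% of all genes, 14.5% higher and 13.9% lower. Past 0.32, 6 members were higher and 12 lower, against 24.8% and 27.0% (51.8% in either direction). Rpl12 (0.74) and Rpl7 (0.61) were higher past 1.5-fold, and Rps21 (-0.88, 1.84-fold), Rps10 (-0.76) and Rps19 (-0.65) lower.

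The levels behind these values were as follows. Rps21 stood at 9.95 in unstimulated and 10.46 in stimulated control cells, and at 10.29 and 9.91 in the miR-155 cells. Rps10 stood at 11.37, 11.68, 11.83 and 11.39 in the same order. Rps19 stood at 8.65, 8.88, 8.99 and 8.57. In each, the stimulated control and the unstimulated miR-155 arrays were high and the other 2 low, an order that a low difference of the responses favours by its construction. Rpl7 was at 11.43 and 11.03 in control cells and at 11.11 and 11.32 in miR-155 cells, Rpl12 at 6.96, 6.45, 6.89 and 7.12. Both were lowest in stimulated control cells.

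Large and small subunit genes were set side by side over the parent genes above the floor, 33 large and 21 small. In control cells the response had a median of 0.02 for the large and 0.18 for the small subunit, with 19 of 33 large and 15 of 21 small subunit genes above 0, beside 6475 of all 13545 genes. In miR-155 cells the medians were -0.05 and -0.09. Between the unstimulated vectors they were 0.06 and 0.15, with 19 of 33 large and 18 of 21 small subunit genes above 0, beside 6751 of 13545, and between the stimulated vectors -0.02 and -0.04. The response in control cells and the comparison of the unstimulated vectors share the unstimulated control array. The difference between the subunits was not tested, since genes are not replicates.

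Without stimulation, the miR-155 cells had a median of 0.11 over the 61 members, beside 0.00 for all genes. Of all genes 6751 were above 0 and 6793 below, and of the members 43 and 18. Rps27l was the 1 member past 1.5-fold. Rps10 (0.46), Rps15a (0.39), Rplp1 (0.39) and Rps19 (0.34) followed, and the lowest values were those of Rpl7 (-0.32), Rpl5 (-0.30), Rpl36a (-0.29), Rpl23 (-0.26) and Rpl14 (-0.22). Rpl5 and Rpl23 can both bind and restrain Mdm2, the ubiquitin ligase of p53, when ribosome assembly stalls. Rpl5 stood at 12.11 and 11.95 in control and 11.81 and 11.98 in miR-155 cells, Rpl23 at 11.93, 11.76, 11.67 and 11.84. For both, the unstimulated miR-155 array was the lowest of the 4, an order that their choice among the 5 lowest values favours. The other genes of the fixed set of well-studied members that had a reading lay above 0. They ranged from Rps6 (0.01) to Rps19 (0.34), with Rps3 at 0.10, Rps14 at 0.12 and Rpl26 at 0.15. Past 0.32, 7 members were higher and 0 lower, against 7.55% and 12.1% of all genes (19.7% in either direction).

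With stimulation, the miR-155 cells had a median of -0.02, beside -0.03 for all genes. Of all genes 6431 were above 0 and 7112 below, and of the members 27 and 34. Rps27l and Rpl12 (0.66, 1.58-fold) were past 1.5-fold, both higher in miR-155 cells. Rpl7l1 (0.40), Rps3a1 (0.40) and Rps14 (0.38) followed. The lowest were Rps21 (-0.55, 1.46-fold), Rpl36 (-0.47), Rpl10l (-0.39), Rpl14 (-0.32) and Rps19 (-0.32), with Rplp2 next (-0.32). Rpl38, a large subunit protein needed for translation of Hox messages in mouse embryos, was higher in miR-155 cells in both states (0.25 and 0.35), with levels of 11.33, 11.53, 11.58 and 11.88. Past 0.32, 6 members were higher and 4 lower, against 22.0% and 24.6% of all genes (46.6% in either direction). The stimulated control array also enters the response in control cells, so that Rpl12 and Rpl7l1, low on that array, enter both.

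**Figure D3:**
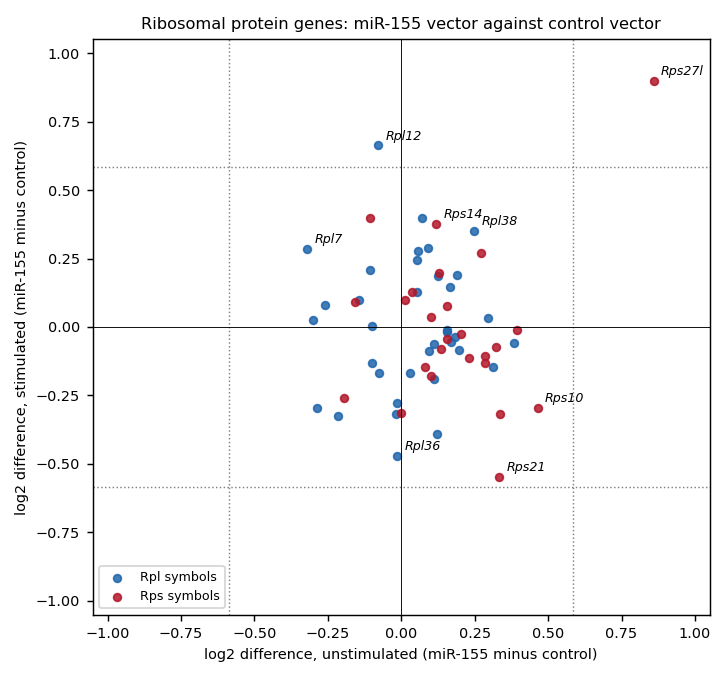
Log2 difference of the miR-155 vector from the control vector without stimulation (x axis) and with RANKL and M-CSF (y axis), 1 point per ribosomal protein gene above the floor, with dotted lines at 1.5-fold. Rps27l stands alone in the upper right, past 1.5-fold in both states.

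Rps27l set the 2 vectors apart in both states. It is a paralogue of the small subunit protein Rps27 and a p53 target in human cells. It stood at 8.98 and 8.83 in control cells and at 9.84 and 9.73 in miR-155 cells, so that both miR-155 arrays lay above both control arrays. The difference was 0.86 (1.82-fold) without stimulation and 0.90 (1.87-fold) with it, and these 2 comparisons share no array. Of all genes above the floor, 1.18% were past 1.5-fold higher in unstimulated and 12.4% in stimulated miR-155 cells. Stimulation itself came with -0.15 in control and -0.11 in miR-155 cells. Mdm2, the ubiquitin ligase of p53, stood at 8.39 and 8.92 in control and at 8.02 and 8.17 in miR-155 cells. Its differences between the vectors (-0.37 and -0.74) had the opposite sign to those of Rps27l, and p53 activity was not tested. The receptor probe sets, as a reference for the noise of dim probe sets, had 95% of their differences within 0.37 without and 0.47 with stimulation. Rps27l has 1 probe set, so no second reading of it exists on these arrays. Its parent Rps27 had no single-symbol probe set, nor did Rpl3, Rpl11, Rpl13a, Rpl22l1, Rpl26l1, Rpl36al, Rpl39 or Rps27a.

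Of the 7 paralogues, copies and Rps19bp1 above the floor, Rps27l included, 4 were above 0 with stimulation under the control vector and 1 under the miR-155 vector. Between the vectors, 6 were above 0 without and 4 with stimulation. Over all 13545 genes above the floor these counts were 6475, 6103, 6751 and 6431 in the same order. Rpl7l1, which acts in the nucleolus during assembly of the large subunit, was at 9.40 in unstimulated and 8.85 in stimulated control cells, and at 9.47 and 9.25 in miR-155 cells. Rpl32l stood at 7.84, 7.73, 8.01 and 7.88. Rps4l had its values between 6.22 and 6.36, Rps23rg1, a retrotransposed copy of Rps23, between 4.79 and 5.16, and Rpl10l, the testis form of Rpl10, between 4.59 and 4.98. Rps19bp1 lay at 8.60 and 8.81 in control and 8.88 and 8.68 in miR-155 cells. Among their parents with a reading, Rps4x stood at 12.02, 11.92, 11.83 and 11.66, lowest in stimulated miR-155 cells, and Rpl10 between 13.08 and 13.26. Rpl22 was between 7.09 and 7.37, Rpl26 between 8.0 and 8.16, and Rpl36a at 10.97, 10.89, 10.69 and 10.59, lower on both miR-155 arrays. The brightest probe sets besides that of Rpl10 and Rplp1 were those of Rps2, at 12.86 to 12.99, and Rpl21, at 12.82 to 13.08. Brightness also depends on the probes, so these values give no order of abundance between genes.

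Ribosomal protein genes have many processed copies in the genome, and 39 members have more than 1 single-symbol probe set, up to 14 for Rps12. Probe sets of 1 gene can hold the same or near-identical probes and read the same RNA, so they repeat the reading of an array and not the culture. Some gave the same values on all 4 arrays, with 8 distinct readings among the 14 of Rps12 and 1 among the 3 of Rpl41. Such duplicates agree by construction and are counted below. Within a gene the probe sets lay close together. The median SD of the log2 difference among the probe sets of a gene was 0.043 for the response in control and 0.039 in miR-155 cells, while the means of the 39 genes had SDs of 0.22 and 0.21. All probe sets of a gene lay on 1 side of 0 for 34 of the 39 genes in control and 30 in miR-155 cells. The 9 probe sets of Rpl36 gave -0.61 to -0.52 in miR-155 cells and -0.145 to -0.005 in control cells. The 4 of Rpl7 gave -0.49 to -0.36 in control and 0.21 to 0.29 in miR-155 cells, and the 3 of Rps10 gave 0.31 to 0.41 and -0.45 to -0.36.

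**Figure D4:**
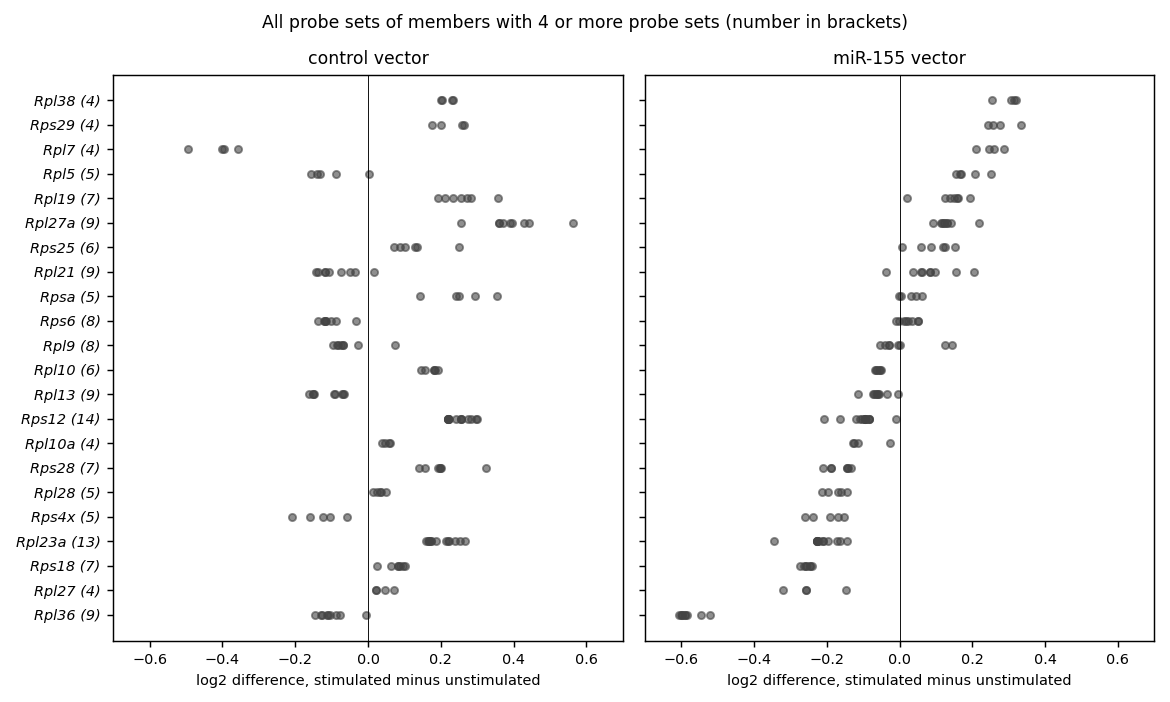
Log2 difference with RANKL and M-CSF for every single-symbol probe set of the members that have 4 or more, in control-vector (left) and miR-155-vector cells (right), 1 point per probe set and 1 row per gene. Points of a gene lie close together, as the 9 of Rpl36 do between -0.61 and -0.52 on the right.

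Some genes did disagree between probe sets. The 2 of Rps21 gave 0.50 and 1.03 in control and -0.38 and -0.36 in miR-155 cells, and -0.55 and -1.14 between the stimulated vectors. The probe sets of Rpsa ranged from 0.14 to 0.36, those of Rpl27a from 0.25 to 0.56 and those of Rpl7a from -0.12 to 0.11 in control cells. The probe set that stands for the gene gave 0.50 for Rps21, 0.14 for Rpsa, 0.39 for Rpl27a and 0.11 for Rpl7a. Rpl12 rests on 1 dim probe set; 8 other probe sets carry its symbol beside others, and they gave 0.17 to 0.45 between the stimulated vectors and -0.08 to 0.11 for the response in control cells, with 0 of the 8 past 1.5-fold. The 3 that carry the symbol of Rps19 beside others gave 0.39 to 0.45 in control and -0.19 to -0.08 in miR-155 cells, where its own probe set gave 0.23 and -0.42; for the difference of the responses 1 of the 3 was past 1.5-fold. Others differed more from the gene's own probe set. The 4 that carry Rpl34 gave 0.38 to 0.72 in control cells, 1 past 1.5-fold, against 0.01. The 1 that carries Rps13 gave 0.99 in miR-155 cells, against -0.15. The 1 that carries Rpl13 gave 0.77 between the unstimulated and 0.89 between the stimulated vectors, against 0.05 and 0.13. Such probe sets may read another of their genes. All 239 probe sets with several symbols that hold a symbol of the family had medians of 0.00 for both responses, 0.04 between the unstimulated and 0.01 between the stimulated vectors.

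The sequence at the transcript start is shown because the TOP tract, where present, lies there. Promoters from RefSeq (GRCm38.p6), 250 bases before to 50 bases after each annotated start, were matched for 51 of 63 members, 60 starts in all. A run of at least 8 C or T bases, read on the transcribed strand only, lay within the 50 bases around 40% of the members' starts and around 19.7% of all 32851 starts. CCGGAAG, the core bound by ETS factors such as GABP, was present on either strand in 33.3% against 8.86%, GGGCGG, the core of the Sp1 site, in 56.7% against 35.7%, and TATAAA in 10% against 13.6%. Annotated starts can differ from the bases where transcription begins, and a match is no evidence of binding. The windows below hold 15 bases on each side of the start, with the longest run of C and T in capitals. They are given for Rps6, for Rpl38, and for Rps10, Rps21, Rpl12 and Rps27l. Rps10 and Rps21 were past 1.5-fold only in the difference of the responses, Rpl12 there and between the stimulated vectors. Rps27l was past it between the vectors in both states. Rpl7 and Rps19, also past it in the difference of the responses, are not shown. Where a gene has several starts, the first in coordinate order is shown.
Rps6, chr4:86857353-86857382, - strand: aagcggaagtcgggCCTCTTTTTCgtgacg
Rpl38, chr11:114668565-114668594, + strand: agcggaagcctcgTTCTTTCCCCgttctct
Rps10, chr17:27635230-27635259, - strand: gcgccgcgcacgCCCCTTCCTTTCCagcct
Rps21, chr2:180257364-180257393, + strand: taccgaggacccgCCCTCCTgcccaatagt
Rpl12, chr2:32961697-32961726, + strand: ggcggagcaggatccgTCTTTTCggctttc
Rps27l, chr9:66946071-66946100, + strand: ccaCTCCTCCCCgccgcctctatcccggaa

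The run spans the start in Rps6, Rpl38, Rps10 and Rps21, begins just after it in Rpl12 and ends before it in Rps27l. The runs at the shown starts of Rps21 and Rpl12 have 7 bases each and so miss the minimum of 8. The 3 starts of Rps19 have longest runs of 4, 4 and 7.

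Among genes that build ribosomes, more were lower than higher past 1.5-fold in stimulated control cells. Of 45 genes above the floor for small nucleolar ribonucleoproteins and the small subunit processome, 16 were at least 1.5-fold lower and 0 higher in stimulated control cells, against 15.2% and 12.4% of all genes, with a median of -0.39. Krr1, a processome factor, went from 8.28 to 6.69 (-1.59), Dkc1, the pseudouridine synthase, from 9.29 to 7.88 (-1.41) and Nop58, a core box C/D protein, from 10.07 to 8.75 (-1.32). Among 46 genes of large subunit assembly and export, 11 were lower and 2 higher, against the same shares of all genes, with a median of -0.29. Rrp1b stood at -1.48, the nucleolar GTPase Gnl3 at -1.20 and the export receptor Xpo1 at -1.15. Of 21 genes of RNA polymerase I transcription, which makes ribosomal RNA, 4 were lower and 1 higher, with a median of -0.31. The 4 lower genes are near the 15.2% share of all genes. The initiation factor subunit Taf1a was at -1.01 and the polymerase subunit Polr1b at -0.61, while Polr2f, a subunit shared by all 3 polymerases, was higher by 2.05.

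In stimulated miR-155 cells these 3 lists had medians of 0.02, 0.13 and 0.02, with 1, 1 and 0 genes lower and 0, 1 and 1 higher, beside 3.74% and 3.43% of all genes. Between the unstimulated vectors the medians were 0.09, -0.00 and 0.10, with 0, 2 and 0 lower and 0, 0 and 1 higher, beside 3.15% and 1.18%. The response of Krr1 was 0.30, of Dkc1 0.20, of Nop58 0.40 and of Gnl3 0.48. Between the stimulated vectors, the miR-155 cells had 17 of 45, 15 of 46 and 8 of 21 genes past 1.5-fold higher and 0, 0 and 1 lower, against 12.4% and 13.6% of all genes. The stimulated control array enters this comparison and the response in control cells. It is also the one on which the macrophage markers Cybb and Lyz2, but not Cd68, were low. What part the shared array or the cell state had in these lists was not tested. Myc, a transcription factor that drives ribosome production, was higher with stimulation in both vectors (5.03 to 9.07 and 5.41 to 8.26).

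**Figure D5:**
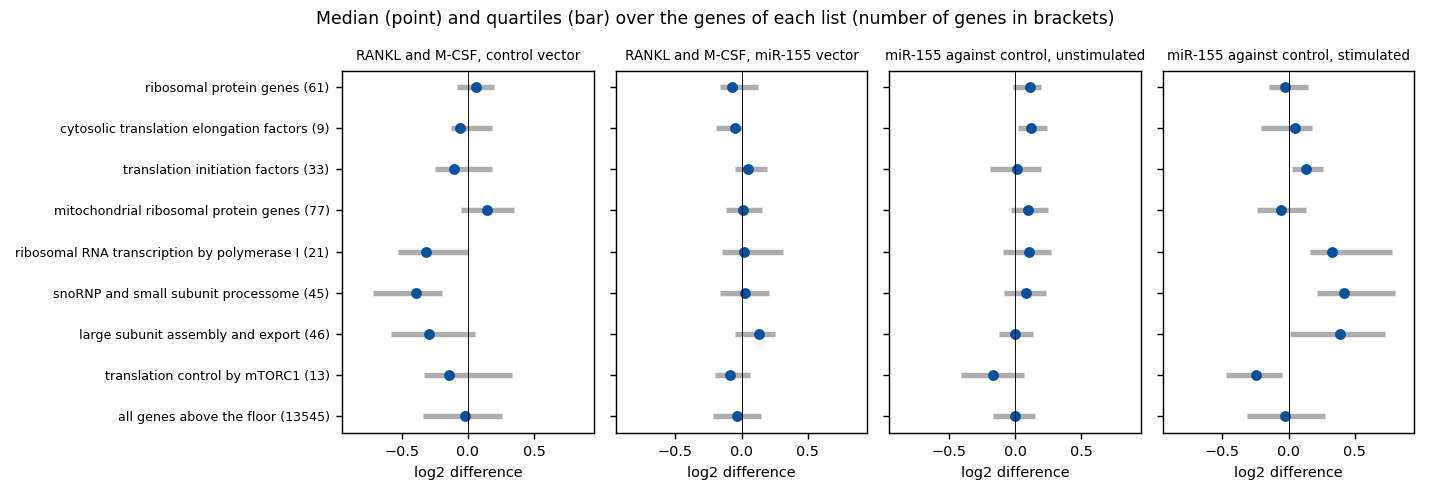
Median (point) and quartiles (bar) of the log2 difference over the genes of each list above the floor, in 4 comparisons, with the number of genes in brackets. The ribosomal protein genes lie near 0 throughout, while the 3 lists for making ribosomes lie at -0.39 to -0.29 in stimulated control cells and at 0.33 to 0.42 between the stimulated vectors.

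In stimulated control cells the factors that work on the finished ribosome lay nearer to the ribosomal proteins. Their medians were -0.06 for elongation and -0.10 for initiation factors. Of 9 elongation factors and related genes, 0 were past 1.5-fold in either response, where 27.5% and 7.17% of all genes were. Tpt1, itself a TOP message, stood at 12.23 and 12.63 in control and 12.47 and 12.18 in miR-155 cells, the order also seen for Rps21. Eef2k, the kinase that slows elongation by modifying Eef2, was lower in miR-155 cells in both states (-0.82 and -0.997), at 6.19 and 6.37 against 5.37 and 5.37. Eef1d, a subunit of the exchange factor of elongation, was at 0.50 between the stimulated vectors. Of 33 initiation factors, 1 was higher and 0 lower in control cells, beside 12.4% and 15.2% of all genes: Eif4ebp1, the repressor of cap-binding Eif4e that mTOR switches off, at 0.94 (1.92-fold). In stimulated miR-155 cells 3 of the 33 were past 1.5-fold, beside 7.17% of all genes. Eif4a2 (0.68) and Eif2s2 (0.63) were higher and Eif4ebp2 (-0.80) was lower. Eif4a2 and Eif2s2 were lowest on the unstimulated miR-155 array, at 8.15 and 8.51 (-0.66 and -0.77 against unstimulated control cells). With stimulation they stood at 8.82 and 9.14 in miR-155 cells, beside 8.81 and 9.28 in unstimulated control cells. Fau, which encodes the small subunit protein S30 under a symbol outside the rule, stayed between 11.06 and 11.21. Larp1, the protein that holds TOP messages back, was lower with stimulation in both vectors, from 10.31 to 9.43 and from 10.17 to 9.33, differences of -0.89 and -0.84.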

How the data were processed

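One Affymetrix Mouse Gene 1.0 ST array per group was hybridised with cRNA from 100 ng of total RNA, per the labels' protocols. The deposited values are log2 expression values made by the authors with RMA and Partek, per the submitters' processing notes; no version is named, and the build is not given in the sources used here. In the platform annotation, 1 symbol was given to 21789 of 35557 probe sets, several to 1621 and none to 12147. All 63 members had their gene ID in the RefSeq table (GRCm38.p6), and 0 symbols changed. Log2 differences were taken between arrays and counted past 1.5-fold over the 13545 genes whose highest value exceeded the floor of 4.25, from 1210 receptor probe sets. No test was possible. Precision is limited by 1 array per group, and arrays give no depth. The counting step was tested on simulated data. Members, lists and comparisons were chosen with earlier results of these data known. Named genes are fixed sets (stalk genes, well-studied members, paralogues with their parents), the 5 highest and 5 lowest members of each comparison, the 4 brightest and 4 dimmest, the 4 whose probe sets disagree most, and 3 per other list. Myc, Fau, Eif4ebp2, Rps12, Rpl32l, Mdm2, Rpl13, Rpl34 and Rps13 were added after their values were seen. Alternatives were other scalings, probe set averaging, no floor, narrower membership and other folds. Python 3.11.15, numpy 2.4.6, pandas 2.3.3 and matplotlib 3.10.9 were used.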

Additional observations from a re-analysis of the deposited data

Results flagged for a closer look

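The family's median and Rps21 had opposite signs in the 2 vectors or the 2 states, and no difference of this kind could be tested with 1 array per group. The median response to RANKL and M-CSF was 0.06 in control and -0.0744 in miR-155 cells. The median difference between the vectors was 0.11 without and -0.0248 with stimulation. Rps21 was the 1 member past 0.32 (log2) in opposite directions: its response was 0.50 in control and -0.38 in miR-155 cells, and its difference between the vectors 0.33 without and -0.55 with stimulation. That Rps21 stands alone depends on the probe set chosen for each gene. The response of Rps10 was 0.31 in control and -0.45 in miR-155 cells. Its other probe sets gave 0.37 and 0.41 in control and -0.40 and -0.36 in miR-155 cells, past 0.32 in opposite directions. The same 4 arrays make both pairs, so the vector pair is no second reading of the response pair.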

How the results depend on the processing

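No paired analysis was possible because each group has 1 array; for the same reason no array could be left out. Over 9 alternatives the median of the ribosomal protein genes lay between 0.00 and 0.20 in control cells, between -0.07 and 0.00 in miR-155 cells, between 0.04 and 0.17 for the unstimulated vectors, between -0.10 and 0.01 for the stimulated vectors and between -0.25 and -0.01 for the difference of the responses. The sign turned in 1 alternative for miR-155 cells and 1 for the stimulated vectors, in both cases with the probe sets of several symbols (0.00 and 0.01). With arrays centred on their median, the control median was 0.20 and the difference of the responses -0.25; counts became 1 higher in control cells, 1 lower between stimulated vectors, and 1 higher and 6 lower for the difference of the responses. Averaging all probe sets of a gene moved counts to 1 higher in control cells and 1 lower between stimulated vectors. Without Rps19bp1 and the named paralogues, and likewise over parent genes only (added after seeing the data), 0 were higher between unstimulated and 1 between stimulated vectors, since Rps27l is left out. The 239 probe sets with several symbols (added later) gave 5 higher and 0 lower in control cells and 3 higher and 0 lower in miR-155 cells. They gave 1 higher and 1 lower between unstimulated vectors. Between stimulated vectors, and likewise for the difference of the responses, 1 was higher and 2 were lower. For the 39 members with 2 or more probe sets (added later) only the counts that moved are given. These were 1 higher in control cells, 0 higher between unstimulated vectors, 0 higher and 1 lower between stimulated vectors, and 1 higher for the difference of the responses. At 2-fold, no member was past the threshold in any comparison (0). Past 0.32 (log2), 3 were higher and 3 lower with the control vector, 2 and 7 with the miR-155 vector, 7 and 0 between unstimulated vectors, 6 and 4 between stimulated vectors, and 6 and 12 for the difference of the responses. Of 4320 recomputed values of 216 genes, 0 past 1.5-fold changed sign and 17 moved by more than the receptor probe sets' SD; the cause was not tested.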

Other observations

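Mitochondrial ribosomal protein genes, which serve translation inside mitochondria, were set beside the cytosolic family. Of 77 above the floor, 6 were at least 1.5-fold higher and 1 lower in stimulated control cells, against 12.4% and 15.2% of all genes, and the median was 0.14. Mrpl52 went from 7.97 to 9.67 (1.70). In miR-155 cells 2 were higher, Mrps10 (0.63) and Mrpl22 (0.60), and 0 lower, beside 3.43% and 3.74% of all genes. The SD across genes of the response in control cells was 0.37 for the mitochondrial and 0.21 for the cytosolic family. In miR-155 cells both were 0.22, and between the unstimulated vectors both were 0.21. Between the stimulated vectors they were 0.36 and 0.26. These differences were not tested.

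Genes of the mTORC1 pathway, which couples nutrients to ribosome production, gave 2 of 13 higher and 2 lower in stimulated control cells, near the 12.4% and 15.2% of all genes. Lamtor1, a subunit of the lysosomal scaffold of mTORC1, had opposite signs in the vectors, with 8.47 and 9.11 in control and 8.67 and 7.98 in miR-155 cells (0.64 and -0.69). Pdcd4, an inhibitor of the helicase Eif4a, was higher with stimulation in both (0.60 and 0.84) and lower in unstimulated miR-155 cells (-0.68). Serbp1, Btf3 and Naca, which bind ribosomes or nascent chains, were not past 1.5-fold in any of the 4 comparisons.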
